A study of Homo sapiens with 4 samples.

Results

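The human genes whose products build the protein part of the mitochondrial ribosome were followed in A549 cells, an established lung carcinoma line, with and without doxycycline. Members were the protein-coding genes whose GENCODE 29 symbol begins with MRPL or MRPS followed by a number, which gave 78 of the 58051 listed genes, 49 MRPL (large subunit) and 29 MRPS (small subunit) genes. The series concerns the pioneer factor FOXA1 and the transcription factor AP-1. All cells carried A-FOS, a dominant-negative FOS that keeps JUN proteins from DNA, inserted at random sites with piggyBac and switched on by doxycycline. The plus Dox group (2 libraries) received doxycycline at 1 µg/mL in the medium, and the minus Dox group (2 libraries) had the same insertion and no treatment. No group with doxycycline and without A-FOS was analysed here, so an effect of the drug and one of A-FOS cannot be told apart. The labels state neither the time in doxycycline, nor whether the cells were 1 clone, nor whether replicates were grown separately. A p-value here sets a difference between groups against the spread of libraries within a group, and that spread may be only technical.

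The mitochondrial ribosome translates the few proteins that mitochondrial DNA encodes, all of them core subunits of the respiratory chain and of ATP synthase. Its RNAs come from mitochondrial DNA, and its proteins are nuclear-encoded, made in the cytosol and imported. Many are relatives of bacterial ribosomal proteins, and many others are additions particular to mitochondria. Tetracyclines bind the small subunit of bacterial ribosomes, and doxycycline also blocks translation on the related mitochondrial ribosome. The comparison thus asks whether the mRNAs of the large and small subunit differed, and differed alike, in cells given doxycycline.

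Total counts were 32727539 and 31104964 in the plus Dox libraries, and 36377784 and 40526912 in the minus Dox libraries. Reads counted to FOS, which cannot be separated from those of A-FOS, reached 48.6 and 51.0 CPM (counts scaled to a common library total, here with TMM factors) in plus Dox, against 1.36 and 1.52 CPM in minus Dox. Of epithelial markers, KRT8 and KRT18 were abundant in every library, while KRT7 and KRT19 had log2 fold changes of -3.11 and -2.53, and EPCAM was at 1.90 and 2.33 CPM in plus Dox, against 3.43 and 3.55 CPM in minus Dox. The leukocyte marker CD3E had a count of 0 in all 4, and the alveolar surfactant genes SFTPC and SFTPB were at or below 6 counts. All 13 mitochondrially encoded mRNAs were listed at 0 in every library, so the transcripts that the mitochondrial ribosome reads were not measured. Every member passed the filter on low counts, with 115 to 6212 counts per library.

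Most members lay modestly lower in plus Dox relative to other genes, with 1 clear exception. By TMM scaling 42 of the 78 fell, 8 rose and 28 stayed short of the threshold in edgeR's quasi-likelihood test (Benjamini-Hochberg adjusted p under 0.05 over all 18046 tested genes). The calls lower made up 53.8% of members, where 28.4% of all tested genes were lower, and the calls higher 10.3%, where 28.4% were higher. The median log2 fold change of members was -0.18, against 0.00 over all tested genes. The largest falls were those of MRPL24 and MRPS34, at -0.80 and -0.79, and the largest rise that of MRPL42, at 0.96. The 28 members short of the threshold lay between -0.17 (MRPL38) and 0.26 (MRPS17).

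These changes are relative to the typical gene, not to the library. TMM scaling puts the median of all tested genes at 0.00, and scaling by library size alone puts it at 0.22. With library size alone the members' median was 0.04 and 23 members were called higher and 19 lower, against 8 and 42 with TMM. Over all tested genes, library size alone called 43.6% higher and 16.2% lower. As a share of all counts the members together took 0.395% and 0.399% in plus Dox, and 0.397% and 0.396% in minus Dox. That share did not separate the groups. In all of 11 fits, library size included, 16 members were called lower and 1, MRPL42, higher. Among these fits were DESeq2 (19.9% of all genes higher, 21% lower), a fit with no filter on low counts (15.4% and 16.2%), one with the replicate number as a block (28.9% and 28.8%), and a trend-adjusted fit (29.5% and 25%). The trend-adjusted fit takes out, per library, a smooth trend of level on GC, exon length and abundance.

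**Figure D1:**
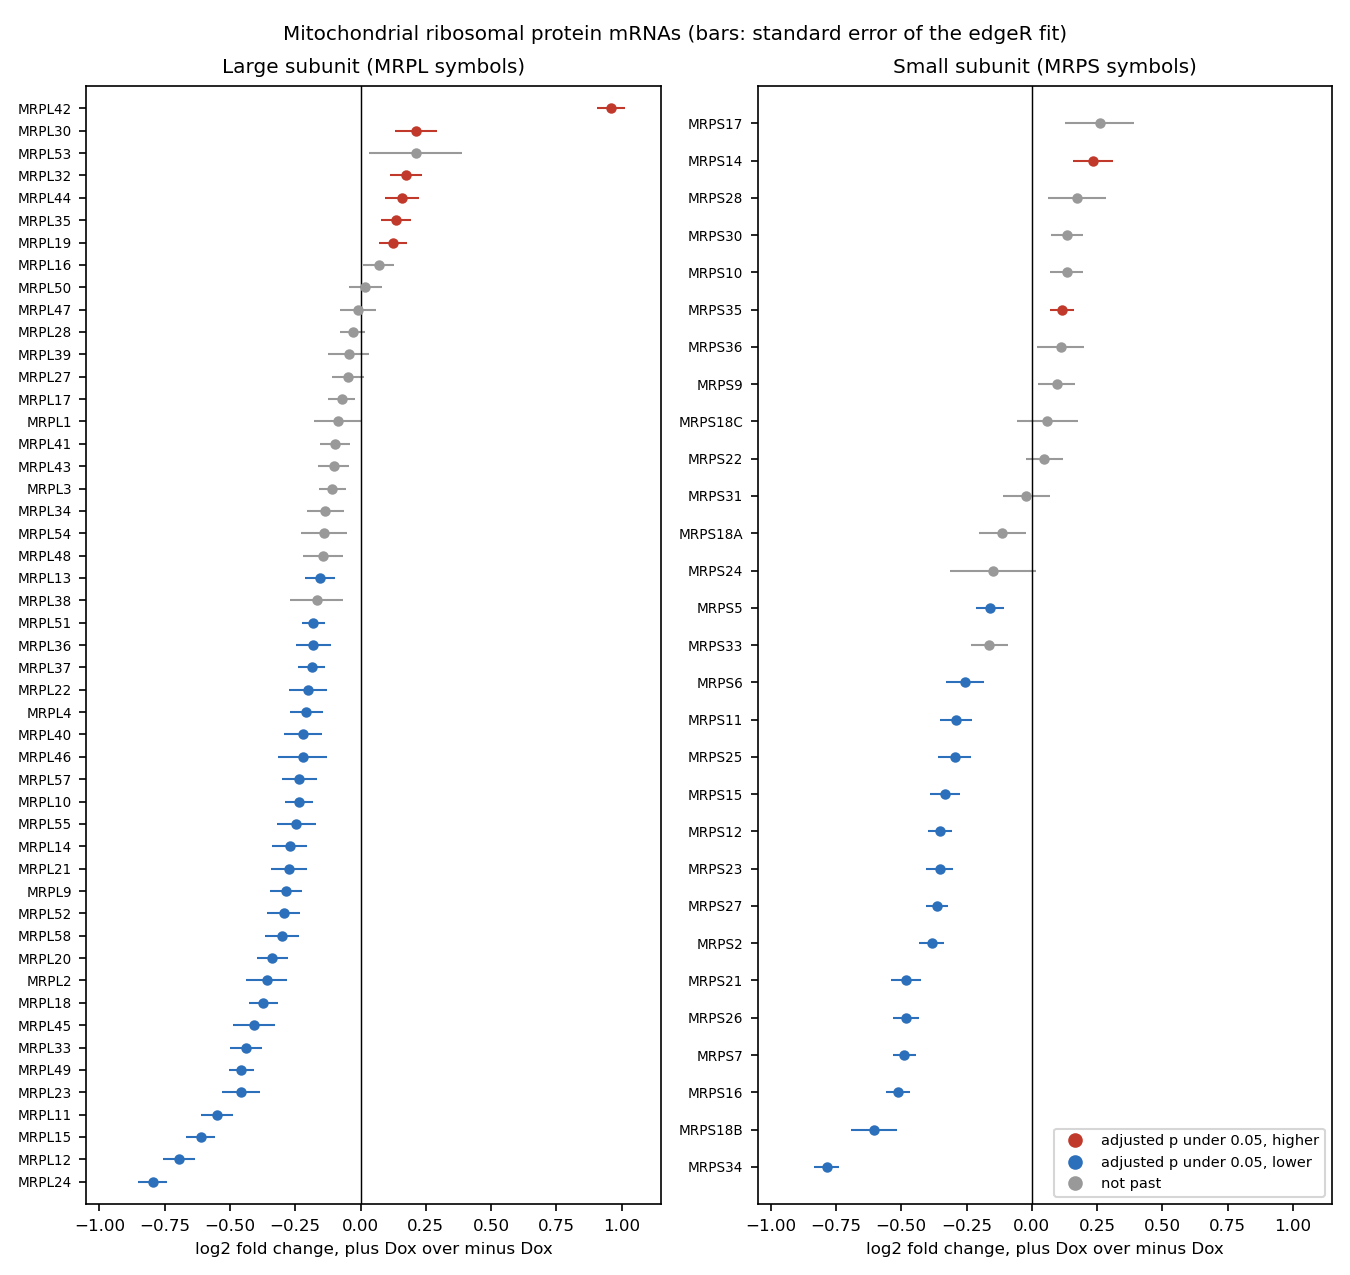
Fitted log2 fold change, plus Dox over minus Dox, of every member (x axis), with large subunit genes on the left and small subunit genes on the right. Bars are the standard error of the fit and colours the call at an adjusted p of 0.05. MRPL42 stands alone at 0.96, and the 42 called lower lie between -0.80 and -0.15 with TMM scaling; with library size only 19 are called lower.

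Both subunits showed this balance. In the large subunit, falls numbered 27 of 49, rises 6 and genes short of the threshold 16, with a median of -0.18. In the small subunit 15 of 29 fell, 2 rose and 12 did not pass, with a median of -0.16. The medians differed by -0.02 (large minus small), less than the SD of 0.04 between replicate libraries. The sign of that difference turned to 0.09 when genes were assigned by their place in the ribosome, which moves MRPS30 and MRPS18A to the large subunit and leaves out MRPS36, now known as a part of the oxoglutarate dehydrogenase complex. It was also 0.12 in the trend-adjusted fit, and positive without minus Dox replicate 1 (0.00), without minus Dox replicate 2 (0.07) and without plus Dox replicate 1 (0.07). The 6 rises of the large subunit came to 3 without minus Dox replicate 2 and to 1 without either plus Dox library. The 2 rises of the small subunit came to 3 without minus Dox replicate 1, to 1 without plus Dox replicate 1 and to 0 without plus Dox replicate 2 by edgeR. The small subunit median was -0.25 without minus Dox replicate 2.

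With TMM scaling the summed levels of both subunits were lower in plus Dox, and with library size only that of the large subunit was higher. The large subunit genes summed to 2176 and 2182 TMM-scaled CPM in plus Dox, against 2433 and 2445 in minus Dox, a difference of -10.7% between the means. The small subunit genes summed to 1496 and 1520.3 in plus Dox, against 1842 and 1837 in minus Dox, a difference of -18.0%. With library size only the large subunit sums were 2341 and 2351 in plus Dox, against 2261 and 2262 in minus Dox (3.74%), and the small subunit sums 1609 and 1639 in plus Dox, against 1712 and 1699 in minus Dox (-4.77%). Groups did not overlap in any of these sums. A ratio formed within a library does not depend on scaling. The large subunit's summed counts per kb of exon were 1.65 and 1.62 times those of the small subunit in plus Dox, against 1.53 and 1.54 times in minus Dox. The log2 difference of these ratios was 0.10 (SD between replicates 0.01, n = 2 each) and 0.07 with the length of the principal transcript in place of all exons. It was 0.08 to 0.11 without any 1 library. Sums per kb give most weight to short, abundant genes. MRPS34, the highest small subunit gene per kb of exon, had 73.1 CPM per kb in plus Dox and 126 in minus Dox. The ratio without MRPS34 was not computed, so its difference cannot be read as a shift shared across the subunits. No test was made of the difference in this ratio, and with 2 libraries a group an exact permutation test could not reach 0.05.

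**Figure D2:**
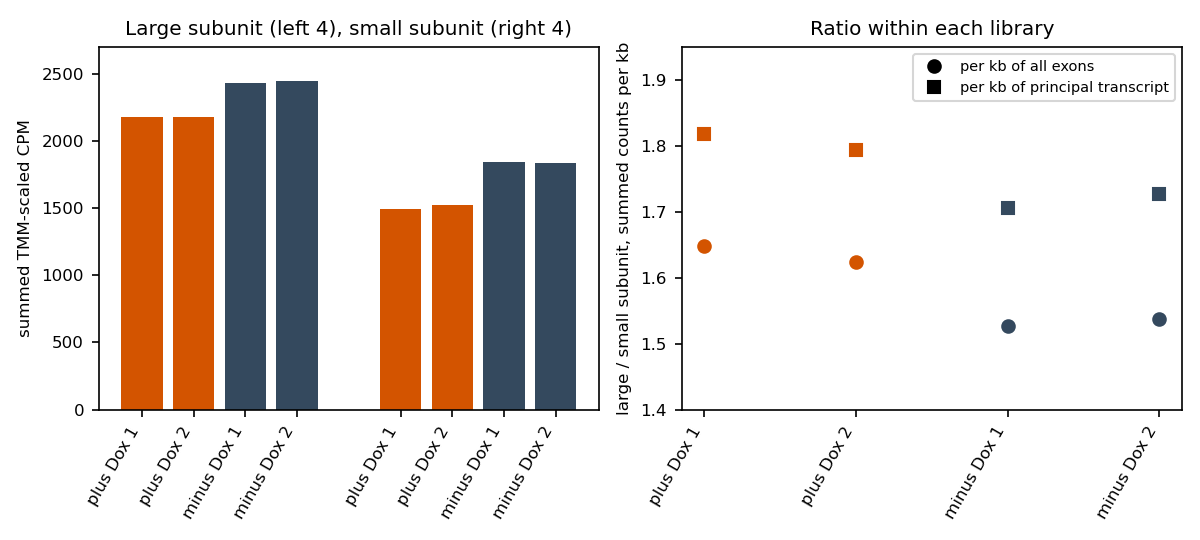
Left, summed TMM-scaled CPM of large and of small subunit genes in each library. Right, the ratio of large to small subunit summed counts per kb within each library, by 2 measures of length, on an axis that starts at 1.4. Both plus Dox libraries lie above both minus Dox libraries in the ratio, 1.62 to 1.65 against 1.53 to 1.54 per kb of all exons.

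The stalk and the exit tunnel held 3 of the 4 strongest falls of the large subunit, those of MRPL24, MRPL12 and MRPL11. MRPL12, relative of the bacterial L7/L12 stalk protein that recruits translation factors, had 34.6 and 34.8 CPM in plus Dox, against 56.7 and 55.8 CPM in minus Dox. Its log2 fold change was -0.70 (SE 0.06, edgeR adjusted p = 3.46e-12), though a gene on the same strand covers 68.2% of its exons. MRPL11, at the base of the stalk, had 40.6 and 39.4 CPM in plus Dox, against 55.8 and 61.3 CPM in minus Dox, a change of -0.55 (SE 0.06, edgeR adjusted p = 1.26e-09). MRPL10, which anchors MRPL12, fell by 0.24 on the log2 scale, and missed the threshold at -0.02 both with library size alone and in the trend-adjusted fit. All 3 stalk members fell, and MRPL11 and MRPL12 did so under every setting. In the whole large subunit 55.1% of genes fell, where 28.4% of all tested genes did. With 3 genes, a difference of the stalk from the rest was not tested.

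MRPL24 (ENSG00000143314, chromosome 1, 156737303 to 156741590 in hg38), relative of a bacterial protein at the rim of the peptide exit tunnel, had 48.6 and 50.0 CPM in plus Dox, against 81.5 and 89.4 CPM in minus Dox. Its log2 fold change of -0.80 (SE 0.06, edgeR adjusted p = 1.16e-14) was the largest fall of all members, and lay between -0.87 and -0.46 under the other settings. MRPL23, on the same rim, fell by 0.46, and MRPL45, which ties the ribosome to the inner membrane, fell by 0.41 on the log2 scale. MRPL22 fell by 0.20, had 0.02 with library size only, and missed the threshold in DESeq2 and when any 1 library but minus Dox replicate 2 was left out (-0.23 to -0.16). The rim was not uniform, since MRPL44, which has the fold of RNase III, rose by 0.16, and MRPL47 had -0.01 (edgeR adjusted p = 0.925). Of these 6 members 4 fell (66.7%, against 55.1% of the large subunit), 1 rose and 1 did not pass.

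The central protuberance is where the large subunit meets the tRNAs and the small subunit's head. Of 7 genes placed there 4 fell (MRPL18, MRPL40, MRPL46 and MRPL58) and 3 did not pass (MRPL27, MRPL38 and MRPL48), with a median of -0.22. The share that fell, 57.1%, was near the 55.1% of the large subunit, whose median was -0.18. MRPL58, a peptidyl-tRNA hydrolase built into the ribosome, had 36.8 and 34.2 CPM in plus Dox, against 44.1 and 43.3 CPM in minus Dox, a log2 fold change of -0.30 (SE 0.07, edgeR adjusted p = 1.54e-04). In the trend-adjusted fit it had 0.12 and did not pass. MRPL46 was the 1 of these called lower in that fit, at -0.49, but missed the threshold without minus Dox replicate 1 (-0.15) or plus Dox replicate 1 (-0.10), and MRPL18, with -0.16, was the 1 called lower with library size only.

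Other large subunit genes with falls under every setting were MRPL15, MRPL33, MRPL49 and the 5 named above for stalk and rim. MRPL15, a relative of a bacterial core protein, had 46.9 and 47.4 CPM in plus Dox, against 71.5 and 72.6 CPM in minus Dox (log2 fold change -0.61). MRPL49, which has no bacterial relative, had 79.9 and 80.9 CPM in plus Dox, against 108 and 112 CPM in minus Dox (-0.46). In both genes the groups lay well apart. MRPL51 was the highest large subunit gene per length, with 80.2 CPM per kb of exon in plus Dox and 90.8 in minus Dox. It fell by 0.18 on the log2 scale, but was called higher, at 0.24, in the trend-adjusted fit, and another gene lies opposite 31.3% of its exons. MRPL3, next to the site where peptide bonds form, had 84.7 and 78.9 CPM in plus Dox, against 89.6 and 86.7 CPM in minus Dox, and did not pass (edgeR adjusted p = 0.0700). MRPL41 had 54.9 and 54.8 CPM in plus Dox, against 58.8 and 58.6 CPM in minus Dox, and did not pass either (edgeR adjusted p = 0.136), though the trend-adjusted fit called it higher at 0.18.

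**Figure D3:**
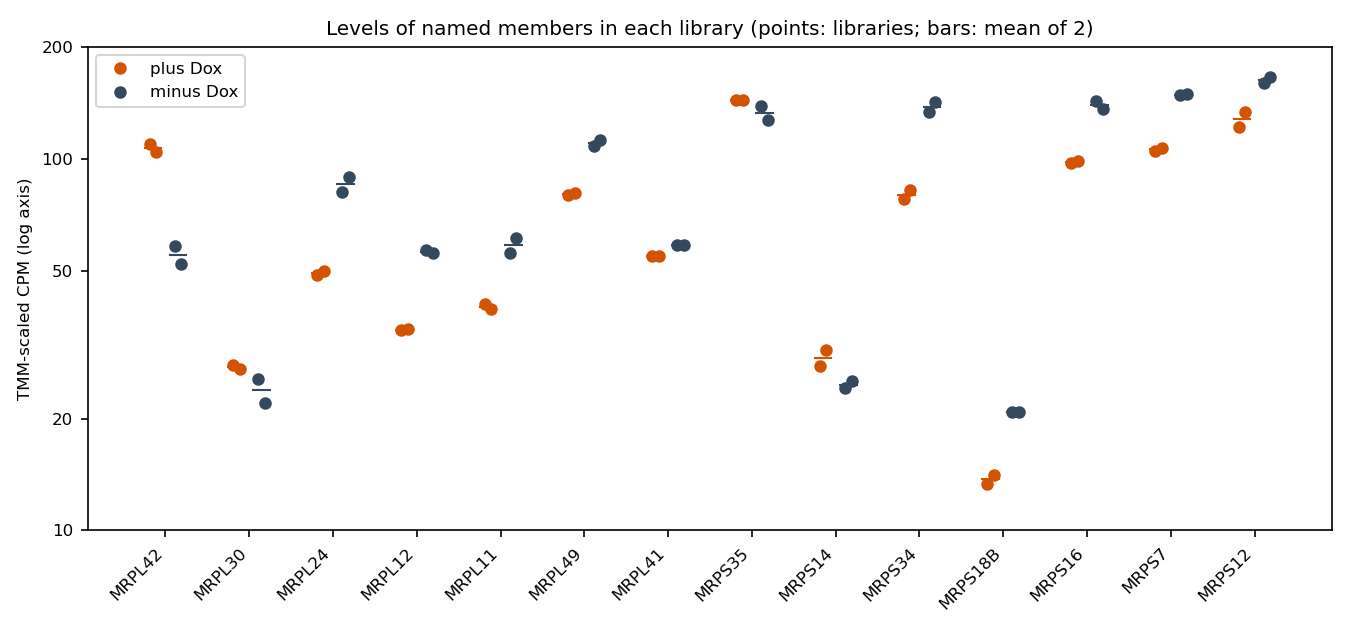
TMM-scaled CPM (log axis) of 14 named members, with 1 point per library and a bar at the mean of 2, plus Dox left of minus Dox for each gene. The groups are far apart in MRPL42, MRPL24 and MRPS34 and close in MRPL30, MRPL41 and MRPS35.

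MRPL42 went against the rest. This gene (ENSG00000198015, chromosome 12, 93467488 to 93516213) encodes a protein particular to mitochondria that now counts to the large subunit. It had 109.9 and 105 CPM in plus Dox, against 58.4 and 52.0 CPM in minus Dox. Both plus Dox libraries were far above both minus Dox libraries. The fitted change was 1.94-fold (log2 0.96, SE 0.05, edgeR adjusted p = 3.50e-17), and lay between 0.72 and 1.18 on the log2 scale under the other settings. Its annotated exons span 16393 bases, the most of all members, and another gene covers 1.72% of them. The counts are per gene, so no isoform can be named as the source of the change.

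The other 7 rises were small. MRPL30 had 27.9 and 27.2 CPM in plus Dox, against 25.6 and 22.0 CPM in minus Dox (log2 fold change 0.21, edgeR adjusted p = 0.0216). MRPL32, whose precursor is cut by the inner membrane AAA protease, rose by 0.17, MRPL35 by 0.14 and MRPL19 by 0.13 on the log2 scale. MRPS14, a relative of a small subunit head protein, had 27.6 and 30.5 CPM in plus Dox, against 24.1 and 25.3 CPM in minus Dox (0.23, edgeR adjusted p = 0.00835). MRPS35, at 144 and 144 CPM in plus Dox against 139 and 127 CPM in minus Dox, rose by 0.12 (edgeR adjusted p = 0.0279). None of the 7 passed in DESeq2. Left without either plus Dox library, 6 of the 7 missed the threshold, and MRPS14 missed it without plus Dox replicate 2 (0.16). MRPL30, MRPL35, MRPL19 and MRPS35 also missed it without minus Dox replicate 2, and MRPL44 without minus Dox replicate 1. In the trend-adjusted fit MRPL32 and MRPL19 were called lower, at -0.20 and -0.17. MRPL35 and MRPS14 did not pass there, while MRPL30, MRPL44 and MRPS35 stayed called higher, at 0.21, 0.39 and 0.24.

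In the small subunit MRPS34 (ENSG00000074071, chromosome 16, 1771890 to 1773155), a mitochondria-specific protein whose loss in humans causes a respiratory chain disorder, changed most. It had 78.0 and 82.3 CPM in plus Dox, against 134 and 143 CPM in minus Dox. The log2 fold change was -0.79 (SE 0.05, edgeR adjusted p = 2.84e-16), and -0.84 to -0.37 under the other settings. Per kb of exon it was the highest small subunit gene, with 73.1 CPM in plus Dox and 126 in minus Dox. Per kb of the principal transcript MRPS12 was higher in plus Dox, at 105 CPM against 78.3 for MRPS34, and the pair had 134 and 135 in minus Dox. In plus Dox MRPS35, at 72.8 CPM per kb, lay next to it, while MRPS35 had 67.2 in minus Dox.

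MRPS16, a relative of a bacterial assembly protein, had 97.4 and 98.9 CPM in plus Dox, against 144 and 136 CPM in minus Dox (log2 fold change -0.51). MRPS7, which helps to form the head, had 105 and 107 CPM in plus Dox, against 148 and 149.7 CPM in minus Dox (-0.49). Both fell under every setting, as did MRPS2, MRPS18B, MRPS21, MRPS23, MRPS27 and MRPS34. MRPS27, a protein with the repeats of RNA-binding PPR proteins, had 126 and 126 CPM in plus Dox, against 164 and 159.9 CPM in minus Dox (-0.36). MRPS26, a mitochondria-specific protein, fell by 0.48, and had -0.09 in the trend-adjusted fit (edgeR adjusted p = 0.0828). MRPS12, relative of the decoding protein that sets accuracy in bacteria, had 122 and 134 CPM in plus Dox, against 160.1 and 166 CPM in minus Dox. Its change of -0.35 (edgeR adjusted p = 3.71e-08) was -0.04 in the trend-adjusted fit, where it did not pass. MRPS22, in which mutations cause mitochondrial disease, had 31.2 and 34.7 CPM in plus Dox, against 32.4 and 31.4 CPM in minus Dox, and the groups overlapped. MRPS28, a relative of bacterial S1, had 10.6 and 10.5 CPM in plus Dox, against 9.73 and 8.99 CPM in minus Dox, and did not pass (edgeR adjusted p = 0.188).

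Humans have 3 relatives of the bacterial S18 protein, and 1 of the 3 passed the test. MRPS18B, a small subunit protein, had 13.4 and 14.1 CPM in plus Dox, against 20.8 and 20.9 CPM in minus Dox. Its log2 fold change of -0.60 (SE 0.09, edgeR adjusted p = 3.07e-07) was the second largest fall of the small subunit genes. MRPS18A, which sits in the large subunit despite its symbol, had 16.9 and 16.9 CPM in plus Dox, against 19.6 and 17.0 CPM in minus Dox. MRPS18C, also a small subunit protein, had 10.9 and 9.28 CPM in plus Dox, against 9.20 and 10.2 CPM in minus Dox. These last 2 did not pass (edgeR adjusted p = 0.300 and 0.687), and other genes lie opposite 47.0% and 40.2% of their exons. MRPS30, a further large subunit protein with a small subunit symbol, had 0.13 (edgeR adjusted p = 0.0582), and MRPS36 had 0.11 (edgeR adjusted p = 0.301). The differences between the genes were not tested.

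Members with bacterial relatives and members without them were counted apart. In the large subunit 18 of 30 genes with a bacterial relative fell and 4 rose (median -0.20), against 9 and 2 of 19 without one (median -0.17). In the small subunit 10 of 18 with a relative fell and 1 rose (median -0.21), against 5 and 1 of 11 without one (median -0.16). Of all tested genes 28.4% were lower and 28.4% higher. In the trend-adjusted fit the medians with and without a relative were -0.14 and 0.02 in the large subunit, and -0.10 and -0.29 in the small. With library size only they were 0.01 and 0.05 in either subunit. These differences were not tested. Of 10 members with over 25% of their exons inside another gene's, 3 fell (MRPL12, MRPL51 and MRPL9), and 7 did not pass. Their counts are uncertain, since the strand setting of the counting is not given in the sources used here. By position of the libraries, both plus Dox values lay below both minus Dox values in 53 members and above them in 16, where 38.3% and 38.7% of all tested genes did so. The other 9 members overlapped.

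Base composition moved with these changes. Of the 39 members whose longest transcript has over 47.7% GC, 29 fell, none rose and 10 did not pass by edgeR (median -0.27). None of these was higher at an unadjusted p under 0.05 or in DESeq2, but 4 were called higher and 13 lower with library size only, and 8 and 15 in the trend-adjusted fit. Of the other 39 members 13 fell and 8 rose (median -0.05). Across the 78 members Pearson's r of log2 fold change with GC was -0.47 and Spearman's rho -0.50, against -0.16 and -0.27 across 17974 tested genes with a GC value. Genes share these libraries and are not independent replicates. In the trend-adjusted fit r over the members was 0.18, the medians were -0.04 above and -0.17 below that GC value, and 37 members were called lower and 16 higher. In that fit the large subunit median was -0.06 and that of the small subunit -0.17. The part of base composition in each fall was not tested.

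**Figure D4:**
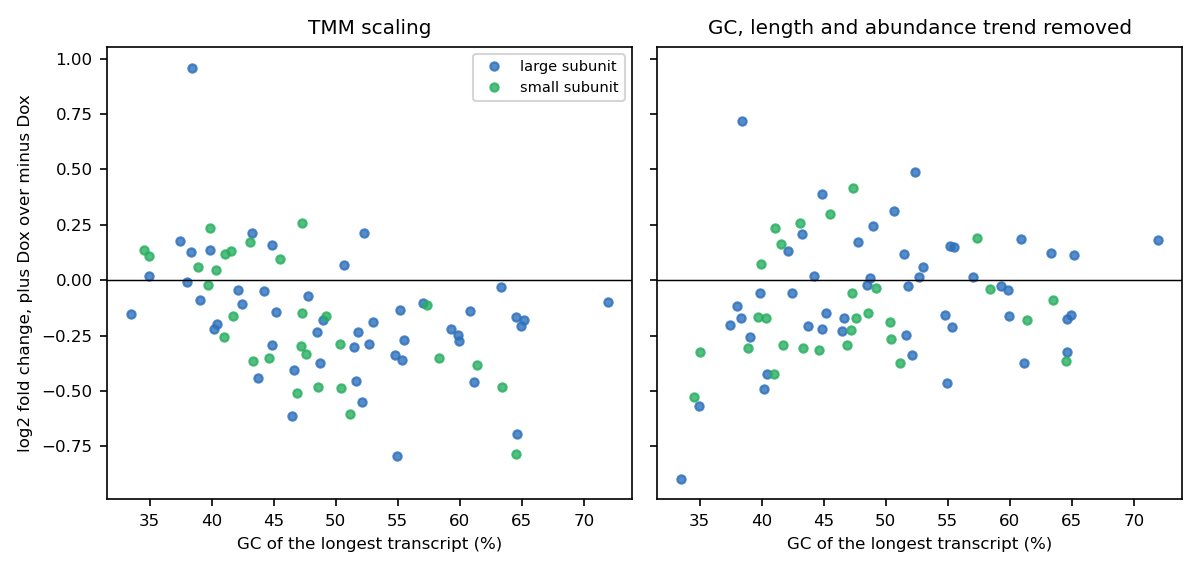
Log2 fold change, plus Dox over minus Dox, against the GC content of the longest transcript of each member, with TMM scaling on the left and trend-adjusted on the right. On the left fold changes run lower towards high GC (r = -0.47), and on the right they do not (r = 0.18), while MRPL42 stays on top in both.

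Promoters of the members were compared by 4 short motifs. RefSeq start sites (GRCh38.p14) gave a window of 250 bases before to 50 after the start for 69 of 78 members. Where a gene had several windows, a member took the window nearest its annotated start. The protein-coding genes set beside them took that with the lowest coordinate, and were not limited to genes expressed here. The ETS motif CCGGAAG, read on both strands as all motifs were, stood in 29 of 69 windows (42.0%), against 14.2% of 14896 protein-coding genes and 10.3% of all 35116 windows. The YY1 motif AANATGGCG stood in 18 (26.1%), against 4.83% and 3.19%. The NRF1 motif (GCGC, any base, then TGCGC) stood in 8 (11.6%), against 8.26% and 5.78%. The AP-1 motif TGANTCA, with any base at N, stood in 1 (1.45%), that of MRPS35, against 6.02% and 7.71%. The MRPS35 match reads TGATTCA, and matches with C or G at N were not counted apart. None of the 4 motifs contains another. By call, the ETS motif stood in 12 of 36 windows of members that fell, 16 of 26 that did not pass and 1 of 7 that rose. A match is a description of letters, not a bound site. Shown here, 5′ to 3′ with matches in capitals, are the windows of the largest falls of each subunit (MRPL24, no match, and MRPS34, 3 ETS matches), of the largest rise (MRPL42, YY1), and of the only member with the AP-1 letters (MRPS35).
MRPL24 (chr1:156741039-156741338, minus strand): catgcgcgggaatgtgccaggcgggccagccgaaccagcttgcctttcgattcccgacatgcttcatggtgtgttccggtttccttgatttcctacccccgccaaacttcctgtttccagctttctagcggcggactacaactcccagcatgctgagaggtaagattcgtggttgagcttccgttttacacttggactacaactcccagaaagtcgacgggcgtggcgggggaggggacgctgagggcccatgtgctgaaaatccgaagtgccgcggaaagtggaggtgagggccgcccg
MRPS34 (chr16:1773085-1773384, minus strand): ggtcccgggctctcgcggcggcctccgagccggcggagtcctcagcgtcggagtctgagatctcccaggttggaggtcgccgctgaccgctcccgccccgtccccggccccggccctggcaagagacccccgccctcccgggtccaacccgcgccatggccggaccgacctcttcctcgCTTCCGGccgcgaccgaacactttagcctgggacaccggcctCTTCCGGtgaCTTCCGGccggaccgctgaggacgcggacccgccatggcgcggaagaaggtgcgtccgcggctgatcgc
MRPL42 (chr12:93467264-93467563, plus strand): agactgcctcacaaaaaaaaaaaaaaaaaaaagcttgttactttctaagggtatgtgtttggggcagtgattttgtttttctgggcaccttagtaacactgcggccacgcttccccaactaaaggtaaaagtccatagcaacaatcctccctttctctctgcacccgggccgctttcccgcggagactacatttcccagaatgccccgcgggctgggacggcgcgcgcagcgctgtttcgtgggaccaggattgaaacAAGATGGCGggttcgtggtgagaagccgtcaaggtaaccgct
MRPS35 (chr12:27710582-27710881, plus strand): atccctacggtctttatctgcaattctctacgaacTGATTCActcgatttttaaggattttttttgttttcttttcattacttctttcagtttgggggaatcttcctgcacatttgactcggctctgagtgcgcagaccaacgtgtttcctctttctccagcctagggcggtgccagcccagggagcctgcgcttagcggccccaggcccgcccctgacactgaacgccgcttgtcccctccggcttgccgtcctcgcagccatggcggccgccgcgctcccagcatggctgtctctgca

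Many members start head to head with another gene. Within 1000 bases, 29 members had at least 1 protein-coding gene starting on the other strand, in 30 pairings. In 9 pairings member and neighbour were called in the same direction, 7 lower and 2 higher, and in 2 they were called in opposite directions. Of the 30 neighbours 23.3% were higher and 30.0% lower, near the 28.4% and 28.4% of all tested genes. MRPS11 and MRPL46 are a pair of members that face each other 34 bases apart, and both fell, by 0.29 and 0.22 on the log2 scale. This pair counts as 2 of the 7. FAU, which encodes a cytosolic ribosomal protein, fell by 0.50 beside MRPL49, and the complex I gene NDUFS6 fell by 0.48 beside MRPL36. PSMA2, a proteasome subunit, rose by 0.93 beside MRPL32. MTBP rose by 0.80 beside MRPL13, which fell by 0.15, and SLC7A7 rose by 0.14 beside MRPL52, which fell by 0.29. EME2, beside MRPS34, had -0.13 and did not pass (edgeR adjusted p = 0.109).

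The other lists of the mitochondrial translation apparatus also held more genes called lower than higher under TMM scaling. Of 5 ribosomal proteins with other symbols 4 fell, DAP3, GADD45GIP1, AURKAIP1 and PTCD3, by 0.31, 0.37, 0.30 and 0.12 on the log2 scale, and CHCHD1 did not pass (-0.07). Another gene covers 29.4% of the exons of GADD45GIP1. Of 25 genes that help to assemble the ribosome 14 fell, 2 rose and 9 did not pass. TFB1M, which methylates the small subunit's RNA, had 4.32 CPM in plus Dox and 8.02 CPM in minus Dox. C1QBP fell by 0.33 (0.14 and called higher in the trend-adjusted fit), NOA1 by 0.44, and GTPBP10 rose by 0.51 on the log2 scale (-0.09 in the trend-adjusted fit).

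Of 14 translation factors 7 fell, 4 rose (28.6%, against 28.4% of all tested genes) and 3 did not pass. The rises were those of GFM1, GFM2, MTFMT and GUF1, by 0.21, 0.26, 0.26 and 0.27 on the log2 scale. GUF1 had 0.03 and did not pass in the trend-adjusted fit, where the other rises stayed called higher. TUFM, which brings tRNAs to the ribosome, had 249 and 253 CPM in plus Dox, against 348 and 362 CPM in minus Dox, a log2 fold change of -0.50 that was -0.08 in the trend-adjusted fit. The recycling factor MRRF fell by 0.36 on the log2 scale. C12orf65, which rescues stalled ribosomes, fell by 0.41, and TACO1, an activator of translation of a cytochrome oxidase subunit, by 0.29 (-0.06 and not past in the trend-adjusted fit). Of 20 genes for charging mitochondrial tRNAs 13 fell and 7 did not pass, with CARS2, HARS2 and TARS2 at -0.73, -0.61 and -0.59. Percentages called lower in these lists ran from 50.0% to 80.0%, against 28.4% of all tested genes. Those called higher ran from 0% to 28.6%, against 28.4%. Their medians, from -0.30 to -0.13, lay at -0.08 to 0.08 with library size only.

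A list of 22 genes covered the copying of mitochondrial DNA, POLG, POLG2, TWNK and SSBP1 included, and the making and processing of its RNA. Of these 9 fell (40.9%), 8 rose (36.4%) and 5 did not pass, where 28.4% of all tested genes were lower and 28.4% higher. Scaled by library size alone, 5 were called lower and 10 higher, and in the trend-adjusted fit 9 and 5. POLRMT, the mitochondrial RNA polymerase, had 73.2 CPM in plus Dox and 124 CPM in minus Dox, and its partner TFAM, which packs mitochondrial DNA, had 98.9 CPM in plus Dox and 68.1 CPM in minus Dox. Their log2 fold changes were -0.76 (SE 0.05, edgeR adjusted p = 6.20e-16) and 0.54 (SE 0.05, edgeR adjusted p = 3.48e-11). Both calls kept their direction in the trend-adjusted fit (-0.69 and 0.24). ELAC2, which cuts tRNA ends, and TBRG4 fell by 0.41 and 0.45.

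**Figure D5:**
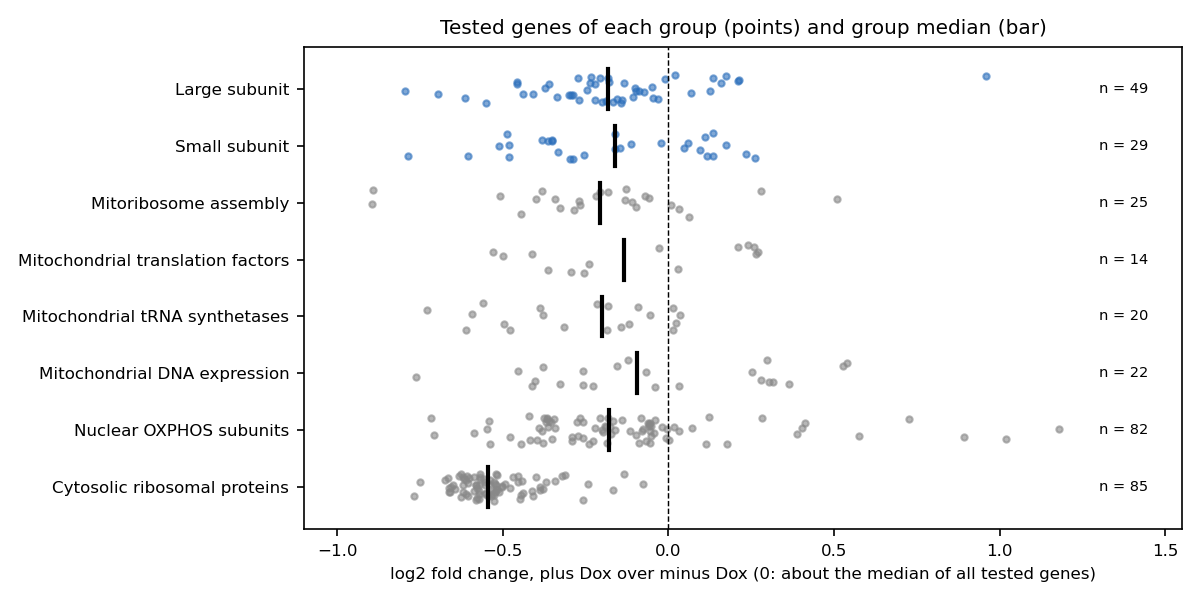
Log2 fold change, plus Dox over minus Dox, of each tested gene (points) in the 2 subunits and 6 other groups, with the group median as a bar. The subunit medians lie at -0.18 and -0.16, near that of nuclear oxidative phosphorylation (OXPHOS) subunits, while cytosolic ribosomal proteins lie at -0.54; with library size only the subunits lie at 0.04 and 0.05.

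Set beside the cytosolic ribosome, the mitochondrial one had a median nearer to 0 and a wider range. Of 85 tested cytosolic ribosomal protein genes 82 fell and none rose by edgeR with TMM (also none at an unadjusted p under 0.05 or in DESeq2), with a median of -0.54 and a range of -0.77 to -0.08. Scaled by library size alone, 78 were called lower and 1 higher, and in the trend-adjusted fit 55 and 11. The 78 members spanned -0.80 to 0.96 around their median of -0.18. The 82 tested nuclear genes for the respiratory chain and ATP synthase, most of them for subunits, had 44 falls and 9 rises. Their median was -0.18 and their range -0.72 to 1.18. With library size only the medians were -0.33, 0.04 and 0.04, and in the trend-adjusted fit -0.18, -0.15 and 0.01, for the cytosolic ribosome, the members and the respiratory subunits. These are counts and medians, and the differences between the groups were not tested.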

How the data were processed

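Raw counts per Ensembl gene, 1 deposited file per library, were used as the authors deposited them, with no normalization. The submitters' processing notes list featureCounts 2.0.3, STAR 2.7.10b, DESeq2 2.11.40.7, cutadapt 4.0, DRAGEN and the build hg38, without saying what each did. Libraries were polyA RNA from a stranded kit, per the labels' protocols. The strand setting of the counting and its annotation release were not given in the sources used here. Symbols, exon lengths, GC and shared exon bases came from GENCODE 29.

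In R 4.3.3, genes were kept by filterByExpr (18046 genes), scaled by TMM and tested for group by the quasi-likelihood method of edgeR 4.0.16. P-values were adjusted (Benjamini-Hochberg) over every gene kept, at 0.05. The pipeline was tested on simulated data. Levels are TMM-scaled CPM. DESeq2 1.42.0 was an alternative. A further one took offsets per library from a smooth trend (mgcv 1.9.3) on GC, exon length and abundance. Libraries of a group differed by more than sampling noise (chi-square per degree of freedom 2.25 in plus Dox and 4.13 in minus Dox). A count of 0 allows up to 3 counts, for counting error only. Named genes were, per subunit, the 6 largest rises and falls, the 3 highest per kb and members with a listed role, and up to 4 of each other list with the lowest adjusted p. Others were named after their values were seen. Members and lists were chosen with earlier results of these data known. A result for 1 listed gene is not reported here.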

Additional observations from a re-analysis of the deposited data

How the results depend on the processing

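Counts of calls and subunit medians depended on scaling. With library size only, 13 large subunit members were called higher and 9 lower, 10 small subunit members were called higher, and the medians were 0.035221 (large) and 0.053679 (small). In the trend-adjusted fit 11 large and 5 small subunit members were called higher, the large subunit median was -0.056205, and the medians differed by 0.11616 (large minus small). Without a filter on low counts 3 large and 1 small subunit members were called higher, and in DESeq2 1 and 0. At an unadjusted p under 0.05 DESeq2 had 2 small subunit members higher and edgeR 4. Assigned by structure, the small subunit median was -0.27256, the medians differed by 0.09202 and the ratio of large to small sums by 0.11792 (log2). Without the 10 members with over 25% of exons inside another gene, these were -0.28907, 0.10195 and 0.1232. With principal transcript lengths, chosen after seeing the data, the ratio differed by 0.072875. Leaving out each library in turn gave 1 to 5 large and 0 to 3 small subunit members higher, 19 to 27 and 14 to 16 lower, medians of -0.20414 to -0.1608 (large) and -0.25054 to -0.16288 (small), differences of -0.04126 to 0.06949, and ratios of 0.084358 to 0.10639. The causes were not tested, and a lone library was assumed to vary like the other group.

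Single members turned round too. With library size only, MRPL13 had 0.061599, MRPL17 0.14382, MRPL22 0.016205, MRPL27 0.16647, MRPL28 0.18557, MRPL36 0.035221, MRPL37 0.028707, MRPL4 0.0090425, MRPL47 0.20699, MRPL51 0.035428 and MRPS5 0.054725. In the trend-adjusted fit, MRPL14 had 0.15072, MRPL17 0.1707, MRPL18 0.007555, MRPL19 -0.17095, MRPL28 0.12165, MRPL32 -0.2013, MRPL34 0.15405, MRPL35 -0.056205, MRPL36 0.11363, MRPL37 0.057914, MRPL41 0.18098, MRPL50 -0.5694, MRPL51 0.24244, MRPL58 0.1177, MRPL9 0.01552, MRPS18C -0.30591, MRPS22 -0.17236, MRPS30 -0.52504 and MRPS36 -0.32526. Of the 78 members, all 78 kept direction and call with RLE size factors, 73 with no filter and 65 in DESeq2.

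Same-numbered libraries did not deviate together across genes (correlation 0.0023 over 18046 genes). With 2 libraries a group this cannot tell whether same-numbered libraries were prepared together, and the labels do not say. The replicate block called 6 large subunit members higher and 27 lower, and 3 small subunit members higher and 16 lower, with medians of -0.18029 and -0.16306. MRPS30 and MRPS33 passed in addition. Depth gave each member at least 115 counts in every library, so none was near the limit that a count of 0 allows.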

Other observations

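Of 9 listed regulators linked to mitochondrial ribosome genes 4 fell (44.4%), 1 rose (11.1%) and 4 did not pass, where 28.4% of all tested genes were lower and 28.4% higher. Library size alone gave 4 lower and 4 higher. MYC had 50.8 CPM in plus Dox and 149 CPM in minus Dox. Of the PGC-1 family coactivator genes, PPARGC1A and PPRC1 fell by 1.01 and 0.58 on the log2 scale. PPARGC1B, of the same family, had -0.16 and did not pass (edgeR adjusted p = 0.226). NRF1, a factor for many nuclear genes of mitochondria, had 17.5 CPM in plus Dox and 24.6 CPM in minus Dox. GABPA, the DNA-binding subunit of an ETS factor, had 31.5 CPM in plus Dox and 16.3 CPM in minus Dox (log2 fold change 0.95, SE 0.08, edgeR adjusted p = 9.97e-13). YY1 had 187 CPM in plus Dox and 183 CPM in minus Dox and did not pass (edgeR adjusted p = 0.550), though the trend-adjusted fit called it higher (0.26).

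Of 18 tested genes known to respond to defects of mitochondrial translation 7 fell (38.9%), 6 rose (33.3%) and 5 did not pass, not far from the 28.4% and 28.4% of all tested genes. Library size alone gave 5 lower and 9 higher. TRIB3, a target of the stress factor ATF4, had 58.2 and 57.2 CPM in plus Dox, against 149 and 157 CPM in minus Dox. DDIT4 fell by 1.56 and the proline synthesis enzyme PYCR1 by 0.96 on the log2 scale, and other genes cover 41.2% and 29.7% of their exons. MTHFD2, a mitochondrial folate enzyme, had 175 and 175 CPM in plus Dox, against 111 and 106 CPM in minus Dox, with 33.2% of its exons covered. The other rises were those of ALDH1L2, GDF15, ATF5, ASNS and SHMT2, by 0.53, 0.48, 0.44, 0.31 and 0.13 on the log2 scale. All of these stayed called higher in the trend-adjusted fit, though another gene covers 44.6% of the exons of ASNS. ATF4 itself had 154 and 155 CPM in plus Dox, against 226 and 243 CPM in minus Dox. Of 14 tested genes of mitochondrial quality control, most of them for chaperones and proteases, 9 fell (64.3%), 2 rose (14.3%) and 3 did not pass. Of all tested genes 28.4% were lower and 28.4% higher. Library size alone gave 7 lower and 4 higher, and the trend-adjusted fit 6 and 4. TRAP1, PHB2, HSPD1 and HSPA9 were among the falls. Another gene covers 29.3% of the exons of TRAP1, and HSPA9 did not pass in the trend-adjusted fit (-0.04).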
